A study of Bos taurus with 23 samples.

Results

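Bovine oocytes labelled as cultured in vitro were compared with oocytes labelled as derived in vivo, by the level of poly(A)+ RNA on GeneChip arrays. The comparison rests on 6 of the 23 arrays of the series, chosen by sample title, with 3 arrays in each group. It covers all 24016 probe sets that are not controls. The other arrays hold zygotes to blastocysts flushed from cows, and they enter here as a source of the estimated spread and, at the end, as a backdrop of levels.

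The in vivo oocytes had matured in the cow and were taken from follicles close to ovulation, in 9 animals on day 0, the day of standing oestrus, per the design text. One characteristic of these arrays reads In vivo derived, whereas their source and description call the cells Invivo cultured. For the in vitro group the labels say cultured oocytes and nothing more, so the donors, the meiotic stage at collection, the medium, the time in culture and the number of oocytes per array are not given. No treatment or genotype is named for either group. Donor, follicle and culture therefore differ together between the groups, and their contributions cannot be told apart. The arrays of a group are called biological replicates, but nothing says that they came from separate animals. The p-values therefore measure only spread between arrays, pooled over the 8 groups of the series, and cannot be read as spread between animals.

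A fully grown oocyte transcribes little, and it lives through maturation, fertilisation and the first cleavages on messenger RNA stored while it grew. During maturation many stored messages are translated or degraded, and both are tied to lengthening or shortening of their poly(A) tails. Bovine oocytes are commonly matured in culture for embryo production, and the levels of stored messages are one way in which such oocytes are compared with those matured in the follicle. RNA was isolated here through its poly(A) tail. A lower level can therefore stand for fewer molecules or for shorter tails, and these cannot be told apart in bulk oocytes, nor can fewer cells and less RNA per cell.

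Levels are GCRMA values, which correct each array for background, give all arrays the same distribution and summarise the probes of each probe set on a log2 scale. A difference of 1 on this scale is a change of 2-fold, and every difference is relative to the rest of the array. Differences are given as in vitro minus in vivo. A value of 4 was taken as the background level, and a fold is written as "at least" where the lower group had an array at or below it. Of the 24016 probe sets, 14571 exceeded 4 on at least 2 of the 23 arrays and were tested with limma, and a probe set passed when its adjusted p was under 0.05. The precision of every value is limited by the 3 arrays per group.

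Both groups carried the messages of oocytes at high levels. KPNA7, an importin of oocytes and early embryos, stood at 15.75, 15.79 and 15.70 on in vitro arrays 1 to 3 and at 15.71, 15.79 and 15.77 on in vivo arrays 1 to 3. ZP2, a protein of the zona pellucida, stood between 14.36 and 14.73 on all 6 arrays. OOEP, a part of the subcortical maternal complex, stood between 13.31 and 13.62. All 12 oocyte-specific and maternal-effect genes on the array exceeded 4 on every oocyte array.

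The in vitro arrays were alike and the in vivo arrays were not. The median SD over tested probe sets was 0.16 among the in vitro arrays and 0.42 among the in vivo arrays. Over all tested probe sets the in vitro arrays correlated with each other at 0.988 to 0.990. In vivo array 2 correlated at 0.967 to 0.972 with the in vitro arrays but at 0.914 and 0.950 with in vivo arrays 1 and 3, so on this measure it lay nearer to the other group than to its own. These correlations are across probe sets and are descriptions only.

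In vivo array 2 also carried messages of follicular cells. HSD17B1, an enzyme of oestradiol synthesis in granulosa cells, stood at 1.76, 1.73 and 1.72 in vitro and at 1.70, 11.03 and 1.71 on in vivo arrays 1 to 3. INHA, the alpha subunit of inhibin, stood at 10.95 on in vivo array 2, at 5.62 on in vitro array 3 and at no more than 2.18 elsewhere. FST, the activin-binding protein follistatin, stood at 9.32 on in vivo array 2 and at no more than 2.17 elsewhere. All of these are high on a single in vivo array, and INHA shows a lesser signal on in vitro array 3.

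Over the whole list of 33 cumulus and granulosa markers on the array, 21 genes exceeded 4 on in vivo array 2, against 12 and 14 on in vivo arrays 1 and 3 and 13 to 16 on the in vitro arrays. The log2 of their summed level was 15.05 on in vivo array 2 and between 14.39 and 14.64 on the other 5. Other defining genes were missing there, since FSHR, AMH and FOXL2 stayed below 4 on all 6 arrays and CYP19A1 reached 4.18. VIM, an intermediate filament gene of somatic cells, and SRGN, a proteoglycan core protein of secretory granules, stood at 12.36 and 12.44 on in vivo array 2. On in vitro array 3 the same genes stood at 6.18 and 7.14, and TIMP1, an inhibitor of metalloproteinases, stood at 8.84 in the probe set with its highest mean.

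In vivo array 1 stood apart in another way. CD52 and CD3E, which mark lymphocytes, stood at 8.47 and 5.13 there, and CD52 stood between 5.27 and 5.71 on the other arrays. PTPRC, the pan-leukocyte antigen, and CD3D, another lymphocyte marker, stayed below 4 on all 6 arrays. Over the whole list of 26 blood and leukocyte markers, 4 exceeded 4 on in vivo array 1, against 1 or 2 on each other array. The mean over the 12 probe sets of the poly(A) control transcripts was 5.88 on in vivo array 1, against 8.64 and 7.79 on in vivo arrays 2 and 3 and 7.64 to 8.05 in vitro. The 18 probe sets of the hybridisation controls showed no such gap, with means between 10.94 and 11.45 on the 6 arrays. What part the signals of these marker genes and the control levels have in the differences between the groups was not tested. Each list of genes below is therefore also counted without in vivo array 1 and without in vivo array 2.

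**Figure D1:**
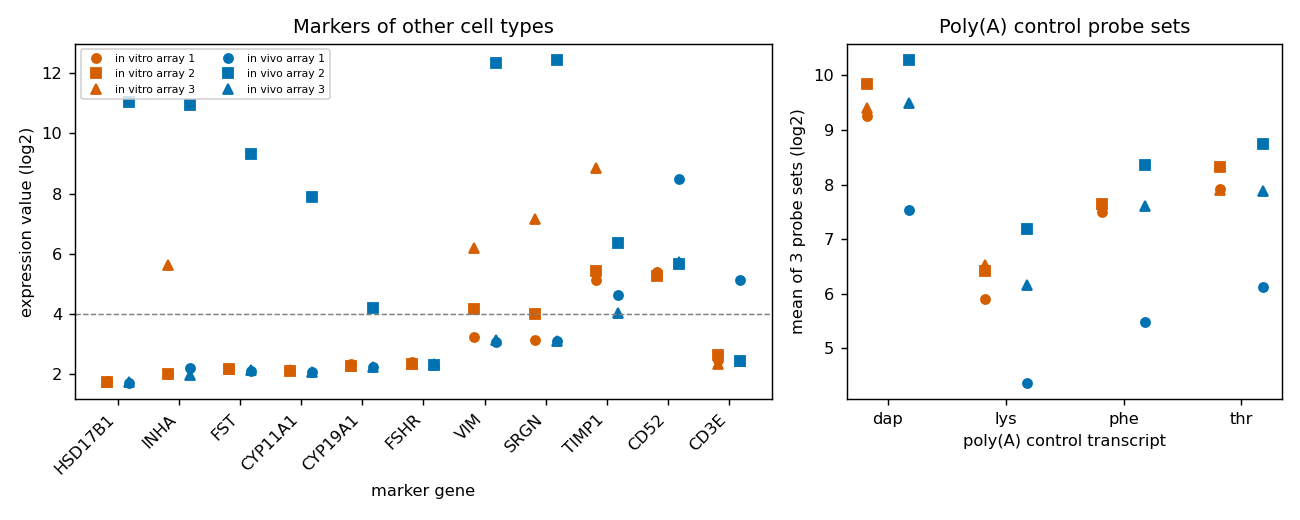
Log2 levels of marker genes of other cell types (left) and mean log2 levels of the probe sets of 4 poly(A) control transcripts (right) on each oocyte array, with orange for in vitro, blue for in vivo and the marker shape for the array number; the dashed line is the background level of 4. HSD17B1, INHA and FST are high on in vivo array 2, and all 4 control transcripts are lowest on in vivo array 1.

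Most probe sets that passed were lower in the in vitro oocytes. In all, 1245 of the 14571 probe sets passed, which is 8.54%, with 1048 (7.19%) lower and 197 (1.35%) higher in vitro. At an unadjusted p under 0.05 there were 2959. Counted as genes, with the probe set of highest mean standing for each, 829 of 7081 (11.7%) were lower and 51 (0.72%) were higher. Named genes made up 86.1% of the lower probe sets, 36.5% of the higher ones and 62.4% of all that were tested.

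The direction of the called set was not that of all tested probe sets, which include those at or below background. The groups did not overlap in 5842 probe sets (40.1%), of which 1618 (11.1%) were lower and 4224 (29.0%) were higher in vitro. Among the tested probe sets, 3919 had a mean of at most 4 on the oocyte arrays, where values carry little signal. Groups can fail to overlap there through very small shifts. How many of the 4224 were of this kind was not counted. The median difference over all tested probe sets was 0.08, slightly higher in vitro. Of the non-overlapping probe sets, 881 of the lower but 184 of the higher ones passed.

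These counts depend on where the spread is taken from. The fit borrows the spread of all 8 groups and has 15 residual degrees of freedom. With the spread of the 6 oocyte arrays alone it has 4, and then 1 probe set passed after adjustment, while 3687 had an unadjusted p under 0.05. An exact permutation test of a single value with 3 arrays against 3 cannot go below p = 0.10.

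On each array the called sets read as follows. The 1048 lower probe sets had median levels of 5.98, 6.16 and 6.23 on in vitro arrays 1 to 3 and of 9.59, 7.36 and 8.66 on in vivo arrays 1 to 3. In vivo array 1 was the farthest from the in vitro mean in 89.8% of them and in vivo array 2 the nearest in 83.2%, against 67.4% and 51.7% of all tested probe sets. The 197 higher probe sets had medians of 7.11, 7.18 and 7.14 in vitro and of 5.16, 5.78 and 5.40 in vivo. Their in vivo arrays lay closer together than those of the lower set.

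Leaving out an array in turn moved the counts widely. Without in vivo array 1, 508 probe sets passed (453 lower and 55 higher), and without in vivo array 2, 2442 passed (1948 lower and 494 higher). As genes, 1426 (20.1%) were then lower and 180 (2.54%) higher without in vivo array 2, and 380 lower and 19 higher without in vivo array 1. Without in vivo array 3 there were 800, and without in vitro array 1, 2 or 3 there were 735, 773 and 836. A core of 477 probe sets passed with all arrays and in each of these 6 fits, with 437 lower and 40 higher. No probe set that passed both with all arrays and in one of these fits pointed the other way. The fits share most of their arrays, so a reversal was hardly possible and its absence is no support for the direction.

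An array that was left out can be read against the calls made without it. Of the 453 probe sets called lower without in vivo array 1, that array stood above all in vitro arrays in 99.3%. Of the 682 called lower without in vivo array 3, that array did so in 97.2%. Of the 1948 called lower without in vivo array 2, that array stood above all in vitro arrays in 51.6%, within their range in 24.2% and below all of them in 24.2%. Over all tested probe sets each in vivo array stood above the in vitro range in 28.1% to 29.6%. These readings are not independent, since the in vitro arrays that set the range also entered the calls. The 453 and 682 calls were made with in vivo array 2 in the fit, and the 1948 without it. The shares are therefore not those of like sets. Within the 1948, in vivo array 2 shared the difference in part of the probe sets and not in the rest.

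**Figure D2:**
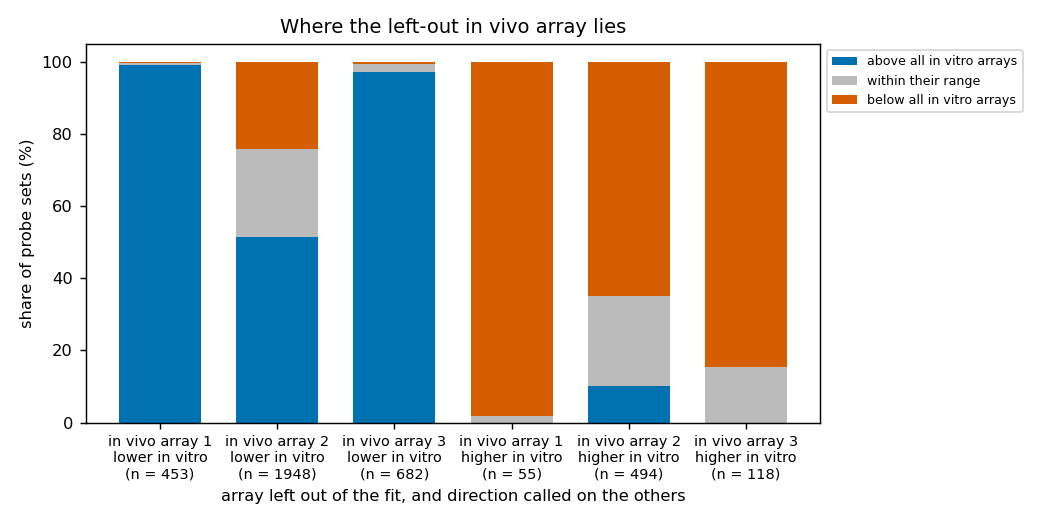
Share of probe sets (percent) in which a left-out in vivo array lay above, within or below the range of the 3 in vitro arrays, for probe sets called lower or higher in vitro from the remaining arrays, with their number under each bar. In vivo arrays 1 and 3 lie above the in vitro range in 99.3% and 97.2% of the lower calls, and in vivo array 2 in 51.6%. The in vitro arrays that set the range also entered the calls, and the sets of calls are not alike.

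Genes of mitochondrial respiration were lower in the in vitro oocytes. Of 39 genes of respiratory complex I and its assembly, which pass electrons from NADH to the chain, 21 were lower and 0 higher, with a median difference of -1.48 over the list. Over all 7081 genes the median was 0.02 and 11.7% were lower. Of all genes, 380 of 7081 were lower without in vivo array 1 and 20.1% without in vivo array 2. The counts of every list without these arrays are to be read beside those shares. The list had 18 lower genes without in vivo array 1 and 22 without in vivo array 2. The median of the list over the in vitro mean was 1.88, 0.81 and 1.18 on in vivo arrays 1 to 3, so all in vivo arrays stood above the in vitro oocytes. In this and the other lists given with 0 higher, between 0 and 6 genes were higher at an unadjusted p under 0.05 in limma.

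NDUFA9, a subunit of complex I, stood at 4.87, 5.47 and 4.51 in vitro and at 9.62, 7.64 and 8.34 in vivo. Its groups did not overlap, and it was 12.0-fold lower in vitro (log2 difference -3.59, SE 0.46, adjusted p = 8.17e-05). NDUFAF3, an assembly factor, stood at 4.17, 2.42 and 3.46 in vitro and at 7.62, 7.35 and 6.55 in vivo, a fall of at least 8.69-fold (adjusted p = 0.000115). Both of its probe sets passed. NDUFS7, a core subunit with an iron-sulfur cluster, had the largest fall of the complex, from 11.08, 6.61 and 9.55 in vivo to 4.31, 3.95 and 4.12 in vitro (log2 difference -4.96, SE 0.84, adjusted p = 0.000897). In NDUFS7 in vivo array 2 lay about midway between in vivo array 3 and the in vitro arrays.

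Complexes II and III, which feed and carry electrons to cytochrome c, had 7 of 19 genes lower, 0 higher and a median of -0.75. There were 5 lower without in vivo array 1, and 10 lower and 1 higher without in vivo array 2. UQCR10, a small subunit of complex III, stood at 5.13, 4.82 and 4.83 in vitro and at 9.91, 9.03 and 8.50 in vivo. The in vivo arrays all lay more than the spread of either group above the in vitro arrays, with means of 4.93 ± 0.18 (SD, n = 3) and 9.15 ± 0.71 (SD, n = 3). UQCR10 was 18.6-fold lower in vitro (log2 difference -4.22, SE 0.36), with an adjusted p of 2.32e-06 and at most 3.17e-05 on leaving out 1 array.

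SDHB, the iron-sulfur subunit of succinate dehydrogenase, stood at 3.72, 4.29 and 5.51 in vitro and at 9.07, 8.92 and 8.16 in vivo, at least 17.4-fold lower (log2 difference -4.21, SE 0.43, adjusted p = 9.07e-06). UQCR11, another small subunit of complex III, stood at 2.99, 2.90 and 4.69 in vitro and at 8.19, 8.71 and 6.64 in vivo (adjusted p = 0.00089). In SDHB and UQCR11 in vivo array 2 was not the lowest of its group.

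For complex IV, which reduces oxygen, 7 of 20 genes were lower and 0 higher with a median of -0.35, and for ATP synthase 9 of 18 were lower and 0 higher with a median of -0.86. These counts were 3 and 6 without in vivo array 1, and 8 and 10 without in vivo array 2. COX6A1, a subunit of complex IV, stood at 10.32, 10.43 and 10.88 in vitro and at 13.35, 12.03 and 12.71 in vivo (log2 difference -2.15, SE 0.28, adjusted p = 8.31e-05). ATP5MJ, a small subunit of ATP synthase, stood at 7.08, 7.27 and 7.80 in vitro and at 11.26, 9.71 and 10.09 in vivo (log2 difference -2.97, SE 0.41, adjusted p = 0.000162). The groups of both genes stood clear of each other on every array.

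Among 27 genes of the tricarboxylic acid cycle and pyruvate dehydrogenase, 7 were lower and 2 were higher, with a median of -0.21 that was 0.00 with the arrays centred on their medians. The counts were 5 lower and 1 higher without in vivo array 1, and 7 lower and 3 higher without in vivo array 2. SUCLG1, a subunit of succinyl-CoA synthetase, stood at 2.58, 4.2 and 3.01 in vitro and at 8.60, 7.12 and 6.99 in vivo, which is lower by at least 11.3-fold (adjusted p = 2.14e-05). MDH2, the mitochondrial malate dehydrogenase, stood at 9.30, 9.12 and 9.34 in vitro and at 13.09, 10.91 and 12.07 in vivo, a 6.82-fold difference (adjusted p = 0.000323). An inhibitory kinase of pyruvate dehydrogenase, PDK4, went the other way. It stood at 4.11, 5.04 and 7.13 in vitro and at 3.06, 3.23 and 3.15 in vivo, at least 2.69-fold higher in vitro (log2 difference 2.28, SE 0.51, adjusted p = 0.00668). Its in vivo arrays were all below the background level, and its means in the embryo groups were 3.06 to 3.59. PDK4 thus entered the test through the in vitro arrays, where it was high, and its adjusted p is no independent support.

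Of 43 genes of mitochondrial import, carriers and dynamics, 11 were lower and 0 higher with a median of -0.59. There were 8 lower without in vivo array 1 and 18 without in vivo array 2. VDAC3, a pore of the outer membrane, stood at 8.73, 9.01 and 9.01 in vitro and at 12.78, 11.44 and 11.90 in vivo. This is a fall of 8.70-fold between groups far from overlap (log2 difference -3.12, SE 0.28, adjusted p = 2.32e-06). PTPMT1, a phosphatase of the cardiolipin pathway, stood at 3.0, 2.33 and 2.43 in vitro and at 9.39, 6.94 and 8.11 in vivo, at least 17.7-fold lower (log2 difference -5.56, SE 0.53, adjusted p = 4.01e-06). TMEM11, a protein that shapes mitochondria, had the largest fall of all named genes, from 11.29, 6.34 and 10.35 in vivo to 2.60, 3.16 and 3.93 in vitro, at least 40.2-fold (log2 difference -6.10, SE 0.80, adjusted p = 9.02e-05). On in vivo array 2 TMEM11 and PTPMT1 were lower than on the other in vivo arrays, but well above background. The second probe set of TMEM11 had an adjusted p of 0.033, and its call was lost in 5 of 6 fits that left out 1 array (adjusted p of at most 0.268, without in vivo array 1) and with the arrays centred on the hybridisation controls (adjusted p = 0.0633).

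**Figure D3:**
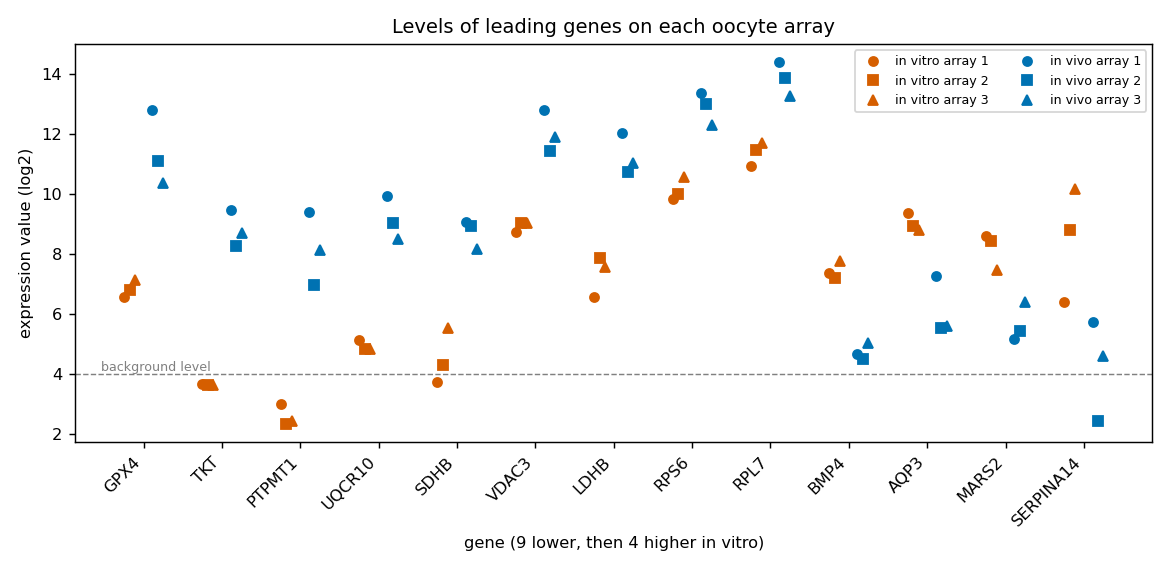
Log2 levels of 9 genes that were lower and 4 that were higher in vitro, on each oocyte array, with orange for in vitro, blue for in vivo, the marker shape for the array number and a dashed line at the background level of 4. The groups do not overlap in any of the 13 genes, the widest in vitro spread is that of SERPINA14, from 6.38 to 10.17, and TKT and PTPMT1 are below background on all 3 in vitro arrays.

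The mitochondrial ribosome, which translates the few proteins encoded by mitochondrial DNA, had 32 of 68 genes lower, 0 higher and a median of -1.43. There were 19 lower without in vivo array 1 and 38 without in vivo array 2. MRPL41 stood at 3.26, 4.96 and 5.23 in vitro and at 10.16, 7.80 and 9.00 in vivo, at least 19.1-fold lower (log2 difference -4.50, SE 0.50, adjusted p = 2.35e-05). MRPS6 stood at 6.54, 7.24 and 7.50 in vitro and at 11.86, 9.80 and 10.50 in vivo, 12.3-fold lower (adjusted p = 3.06e-05). Both are subunits of that ribosome, one of the large and one of the small part. As a list, the median over the in vitro mean was 2.26 and 1.5 on in vivo arrays 1 and 3 but 0.29 on in vivo array 2.

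Proteins of the cytosolic ribosome showed another pattern over the in vivo arrays. Of 40 genes of the large subunit, 14 were lower and 0 higher in vitro with a median of -0.65, and of 27 genes of the small subunit, 7 were lower and 0 higher with a median of -0.31. The large subunit list stood 0.73, 0.87 and 0.31 above the in vitro mean on in vivo arrays 1 to 3, and the small subunit list 0.27, 0.64 and 0.14. Both were therefore highest on in vivo array 2, the array with the granulosa messages. The counts stayed 14 (35.0%) and 7 (25.9%) without in vivo array 2, while the lower share of all genes rose from 11.7% to 20.1%. They were 8 and 5 without in vivo array 1. With the arrays centred on the hybridisation controls they were 6 and 4, and with centring on array medians 8 and 4. The medians of the 2 lists were -0.52 and -0.20 without in vivo array 2, -0.58 and -0.38 without in vivo array 1, and -0.43 and -0.09 with centring on array medians.

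RPL7, a protein of the large subunit, stood at 10.92, 11.47 and 11.68 in vitro and at 14.39, 13.85 and 13.26 in vivo, 5.57-fold lower in vitro (log2 difference -2.48, SE 0.24, adjusted p = 4.01e-06). RPS6, a protein of the small subunit and a substrate of S6 kinase, stood at 9.83, 10.00 and 10.57 in vitro and at 13.37, 12.98 and 12.29 in vivo, 6.72-fold lower (log2 difference -2.75, SE 0.33, adjusted p = 4.96e-05). RPL3, which lies near the site of peptide bond formation, stood at 11.02, 11.17 and 11.51 in vitro and at 13.12, 12.87 and 12.56 in vivo, 3.07-fold lower (adjusted p = 0.000119). In all of these the in vivo arrays lay well above the in vitro arrays. These genes have many near-identical copies in mammalian genomes, which their probes may also bind, so their values are uncertain to that extent.

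Of 35 translation initiation factors 15 were lower and 0 higher, with a median of -0.40. EIF3D, a subunit of the factor that recruits messenger RNA to the small ribosomal subunit, stood at 7.27, 5.05 and 7.66 in vitro and at 10.77, 10.02 and 10.30 in vivo, 13.0-fold lower (log2 difference -3.70, SE 0.45, adjusted p = 5.19e-05). EIF3I, from the same factor, stood at 9.01, 9.14 and 8.92 in vitro and at 11.28, 10.32 and 10.59 in vivo (log2 difference -1.71, SE 0.24, adjusted p = 0.000197). In all, 7 of the 15 lower factors were subunits of this complex (EIF3D, EIF3I, EIF3G, EIF3B, EIF3M, EIF3K and EIF3J), a grouping made after their values were seen. Subunits of this complex, EIF3A to EIF3M, also make up much of the list itself. Their share of the 35 tested was not counted, so no concentration in them can be read from this. There were 9 lower factors without in vivo array 1, and 15 lower and 1 higher without in vivo array 2.

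Of 18 elongation and release factors 5 were lower and 0 higher, and the median was -0.29. There were 3 lower without in vivo array 1, and 5 lower and 1 higher without in vivo array 2. EEF2, which moves the ribosome along the message, stood at 8.89, 9.14 and 8.94 in vitro and at 11.03, 10.84 and 10.50 in vivo, 3.48-fold lower (log2 difference -1.80, SE 0.23, adjusted p = 8.76e-05). EEF1A1, which brings aminoacyl-tRNA to the ribosome, stood at 13.70, 14.31 and 14.09 in vitro and at 15.04, 14.59 and 14.83 in vivo, 1.73-fold lower (adjusted p = 0.00303). The EEF1A1 groups did not overlap, and its call was lost with the arrays centred on the hybridisation controls (adjusted p = 0.151). Another probe set of EEF1A1 did not pass and had a difference of the other sign, with 11.44, 11.43 and 11.41 in vitro and 10.48, 11.58 and 11.27 in vivo (log2 difference 0.31, adjusted p = 0.689), so EEF1A1 cannot be said to be lower as a whole.

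Of 31 aminoacyl-tRNA synthetases, which charge tRNA with amino acids, 9 were lower and 1 was higher, with a median of -0.75. There were 3 lower and 1 higher without in vivo array 1, and 12 lower and 2 higher without in vivo array 2. HARS1, for histidine, stood at 6.73, 6.85 and 7.41 in vitro and at 9.65, 8.31 and 9.40 in vivo, 4.35-fold lower (adjusted p = 0.000302). MARS2, the mitochondrial enzyme for methionine, was the exception. It stood at 8.59, 8.43 and 7.47 in vitro and at 5.14, 5.43 and 6.39 in vivo, 5.70-fold higher in vitro (log2 difference 2.51, SE 0.55, adjusted p = 0.00602, and at most 0.0493 on leaving out 1 array). MARS1, its cytosolic counterpart, was among those that were lower, with a log2 difference of -1.10.

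Ribosome biogenesis, the making of ribosomal RNA and its assembly in the nucleolus, had 18 of 51 genes lower, 0 higher and a median of -0.43. The counts were 11 without in vivo array 1 and 23 without in vivo array 2. EMG1, a methyltransferase of the small subunit precursor, stood at 2.94, 4.01 and 4.36 in vitro and at 9.99, 6.06 and 9.81 in vivo, at least 22.6-fold lower (log2 difference -4.85, SE 0.73, adjusted p = 0.000322). BYSL, which acts in small subunit assembly, stood at 4.09, 3.77 and 3.63 in vitro and at 7.60, 5.91 and 7.25 in vivo (adjusted p = 0.000112). In both, in vivo array 2 lay between the groups but above every in vitro array. Over the list in vivo array 2 stood 0.22 above the in vitro mean, against 1.28 and 0.59 on in vivo arrays 1 and 3.

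**Figure D4:**
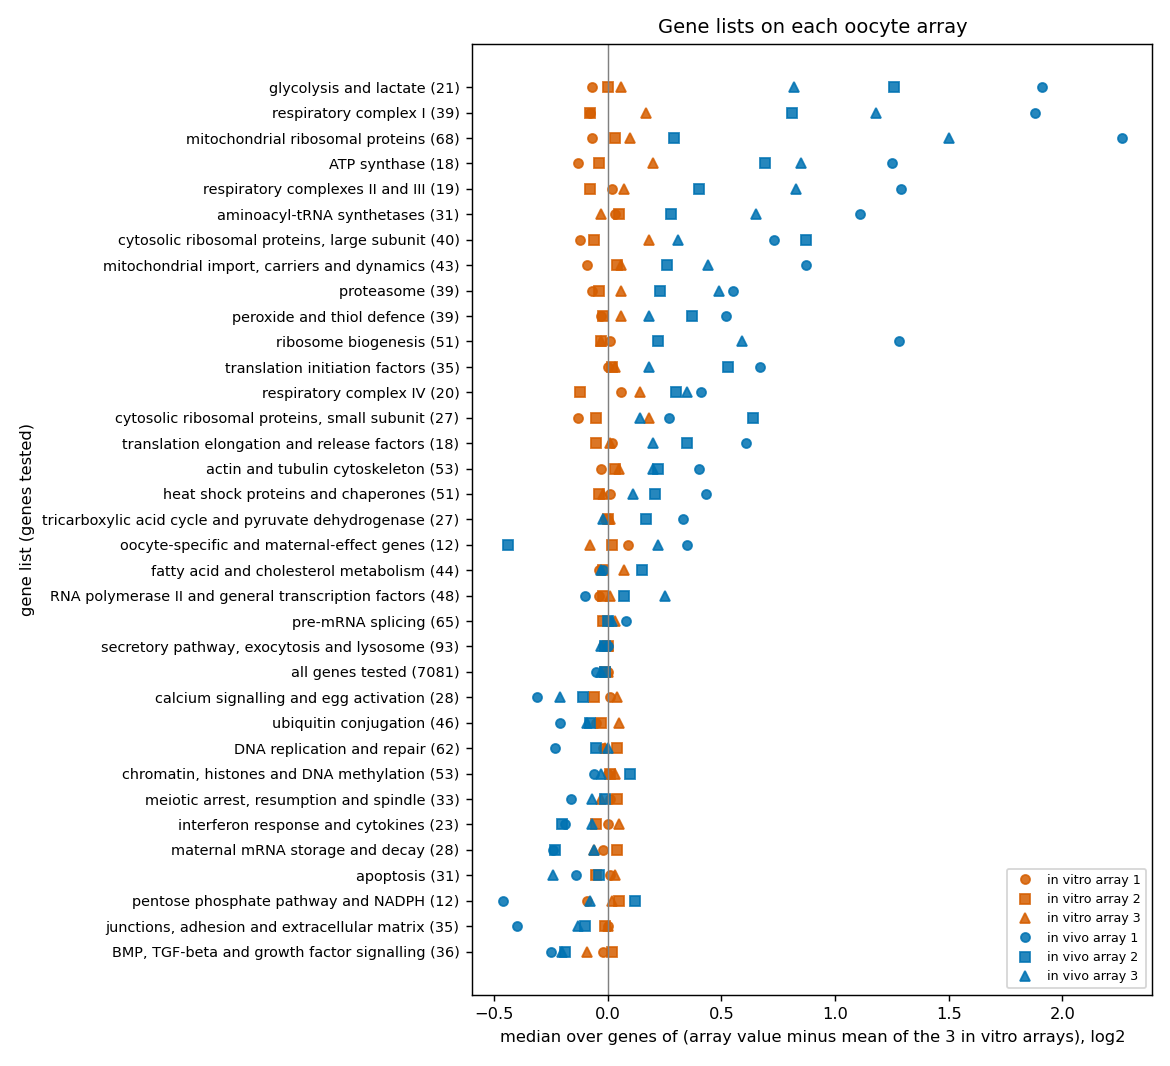
For each gene list, and for all genes tested, the median over its genes of the level on an array minus the mean of the 3 in vitro arrays (log2), with the number of genes in brackets, orange for in vitro, blue for in vivo and the marker shape for the array number. The median of the mitochondrial ribosomal proteins is 2.26 on in vivo array 1 and 0.29 on in vivo array 2, while that of the large cytosolic subunit is highest on in vivo array 2, at 0.87.

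Glycolysis and lactate metabolism had a median difference of -1.71 over 21 genes, with 9 lower and 1 higher. The median was -1.46 without in vivo array 1 and -1.28 without in vivo array 2. Oocytes themselves use pyruvate, much of which reaches them from cumulus cells. LDHB, a lactate dehydrogenase subunit, stood at 6.57, 7.84 and 7.57 in vitro and at 12.04, 10.71 and 11.04 in vivo, 15.3-fold lower (log2 difference -3.93, SE 0.45, adjusted p = 3.12e-05). ENO1, the enolase, stood at 6.38, 7.17 and 7.77 in vitro and at 11.02, 13.08 and 9.41 in vivo, 16.7-fold lower (log2 difference -4.06, SE 0.69, adjusted p = 0.000909). LDHB was highest on in vivo array 1 and ENO1 on in vivo array 2.

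GAPDH missed the threshold, with 8.64, 9.23 and 9.44 in vitro and 10.76, 12.82 and 9.53 in vivo (adjusted p = 0.0655, and 0.244 without in vivo array 2), and it too was highest on in vivo array 2. ALDOA, aldolase A, lost its call without that array (adjusted p = 0.022 with it and 0.0571 without). The list had 4 lower genes without in vivo array 1, and 9 lower and 2 higher without in vivo array 2. SLC16A1, a carrier of lactate and pyruvate, was the higher member, at 10.48, 10.61 and 10.39 in vitro and 9.63, 9.93 and 9.57 in vivo (log2 difference 0.78, adjusted p = 0.0415). Its call was lost in 5 of 6 fits that left out 1 array, with an adjusted p of at most 0.166, without in vivo array 1.

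The pentose phosphate pathway supplies NADPH, which keeps glutathione reduced. Of its 12 genes 3 were lower and 0 higher, with a median of 0.19, and the counts were the same without in vivo array 1 or 2. TKT, transketolase, had very even arrays, with 3.64, 3.63 and 3.63 in vitro and 9.45, 8.27 and 8.69 in vivo. It was at least 27.9-fold lower in vitro (log2 difference -5.17, SE 0.46, adjusted p = 2.32e-06), and all its in vitro arrays were below background. PGLS and TALDO1, the other lower genes, also belong to this pathway and had log2 differences of -3.14 and -1.72. IDH1, an NADPH-producing enzyme of the list, was not counted as lower, since the probe set that stands for it did not pass. Another of its 3 probe sets was lower, at 4.97, 3.45 and 4.67 in vitro and 8.48, 7.77 and 7.84 in vivo (log2 difference -3.67, adjusted p = 2.51e-05). With each gene read as the mean of its tested probe sets, the list had 3 lower and 1 higher.

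Of 39 genes of peroxide and thiol defence 7 were lower (17.9%, beside 11.7% of all genes) and 0 higher, with a median of -0.47. There were 5 lower without in vivo array 1 and 9 without in vivo array 2, where 20.1% of all genes were lower. GPX4, a selenoenzyme that reduces lipid peroxides, stood at 6.56, 6.80 and 7.11 in vitro and at 12.78, 11.10 and 10.37 in vivo, 24.2-fold lower (log2 difference -4.60, SE 0.43, adjusted p = 4.01e-06, and at most 5.36e-05 on leaving out 1 array). GLRX3, a glutaredoxin, stood at 7.01, 7.29 and 8.15 in vitro and at 12.23, 10.00 and 11.13 in vivo, 12.4-fold lower (adjusted p = 3.34e-05). SOD1, the cytosolic superoxide dismutase, did not pass, with 12.59, 12.97 and 12.68 in vitro and 13.47, 12.66 and 13.14 in vivo (adjusted p = 0.732), and its groups overlapped.

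Of 44 genes of fatty acid and cholesterol metabolism 7 were lower (15.9%, beside 11.7% of all genes) and 0 higher. The median of the list, -0.13, turned to 0.08 with the arrays centred on their medians and to 0.06 without in vivo array 2. There were 5 lower without in vivo array 1 and 11 without in vivo array 2, where 20.1% of all genes were lower. The lower members act in the breakdown of fatty acids, among them ACAA2, ECHS1, ETFB and ACADVL, and as a subgroup they were picked out after their values were seen. ACAA2, the mitochondrial thiolase, stood at 4.07, 4.53 and 5.73 in vitro and at 9.73, 7.60 and 8.61 in vivo, 14.6-fold lower (log2 difference -3.87, SE 0.52, adjusted p = 0.000119). Bovine oocytes are rich in lipid droplets, and PLIN2, which coats them, did not pass (13.28, 13.23 and 13.33 in vitro, 13.04, 13.50 and 12.85 in vivo, adjusted p = 0.876). PLIN2 was among the abundant messages in both groups.

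Of 39 proteasome genes 13 were lower and 0 higher, with a median of -0.54. There were 10 without in vivo array 1 and 18 lower and 2 higher without in vivo array 2. PSMB5, a catalytic subunit, stood at 9.09, 9.23 and 9.51 in vitro and at 12.45, 10.83 and 11.76 in vivo, 5.29-fold lower (log2 difference -2.40, SE 0.28, adjusted p = 3.34e-05). PSMC2, an ATPase of the regulatory particle, stood at 8.93, 8.58 and 9.02 in vitro and at 11.89, 10.67 and 11.18 in vivo, 5.30-fold lower (adjusted p = 3.34e-05). Ubiquitin conjugation, the step before the proteasome, had 4 of 46 genes lower and 0 higher, which is 8.70% beside the 11.7% of all genes, with 3 lower without in vivo array 1 and 7 without in vivo array 2.

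Of 51 heat shock proteins and chaperones 10 were lower (19.6%, beside 11.7% of all genes) and 0 higher, with a median of -0.24. There were 8 lower without in vivo array 1, and 16 lower and 2 higher without in vivo array 2. DNAJB1, a co-chaperone of HSP70, stood at 5.23, 4.86 and 3.65 in vitro and at 10.42, 8.17 and 8.72 in vivo, at least 21.2-fold lower (log2 difference -4.52, SE 0.49, adjusted p = 2.21e-05). A second probe set of DNAJB1 did not pass, with 7.59, 7.31 and 9.06 in vitro and 9.32, 9.10 and 7.57 in vivo (log2 difference -0.68, adjusted p = 0.491). DNAJB1 therefore cannot be said to be lower as a whole.

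The same holds for TPT1, a growth-related protein that is abundant in most cells. One of its probe sets was among the largest falls, with 3.74, 5.20 and 3.85 in vitro and 10.78, 6.71 and 9.43 in vivo (log2 difference -4.71, adjusted p = 0.00038), and a second also passed. The other 4 did not, with log2 differences between -0.08 and 0.34 and adjusted p between 0.683 and 0.995. A further probe set of BYSL, CALM3, COX6A1, MDH2, MYB, RPL3, RPL7, SMAD3 and TOB2 was tested and did not pass. Those of COX6A1, MYB, RPL3 and SMAD3 were below 4 on all 6 arrays and that of RPL7 was at most 4.03, so they carry little signal. Those of BYSL, MDH2 and TOB2 had the sign of the called probe set (log2 differences -0.43, -0.87 and 0.74), and that of CALM3 had the other (0.21). Of 231 genes with several tested probe sets and at least 1 that passed, all probe sets passed in 26, and in 0 did called probe sets point in opposite directions.

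Genes of RNA polymerase II and general transcription had 8 of 48 lower (16.7%, beside 11.7% of all genes) and 1 higher, with 4 lower and 1 higher without in vivo array 1, and 16 lower and 2 higher without in vivo array 2. Splicing of pre-mRNA had 9 of 65 lower (13.8%) and 0 higher, with 5 lower without in vivo array 1, and 17 lower and 1 higher without in vivo array 2. Chromatin had 5 of 53 lower (9.43%), DNA replication and repair 7 of 62 (11.3%), the secretory pathway and lysosome 11 of 93 (11.8%), and the cytoskeleton 9 of 53 (17%), with 0 higher in each. In that order these lists had 1, 3, 6 and 5 lower genes without in vivo array 1, and 10, 12, 17 and 14 lower with 1 higher in each without in vivo array 2. The medians of these lists lay between -0.26 and 0.05. Those of transcription, splicing and the secretory pathway turned positive with the arrays centred on their medians, and those of chromatin and replication turned negative with centring on the hybridisation controls. The median of chromatin was also -0.01 without in vivo array 1, and that of the secretory pathway 0.03 without in vivo array 1 and 0.04 without in vivo array 2. GTF2E2, a subunit of general factor TFIIE, had tight arrays (12.48, 12.53 and 12.54 in vitro, 13.86, 13.08 and 13.38 in vivo, adjusted p = 0.00109). ATP6V1E1, a subunit of the pump that acidifies vesicles, stood at 6.86, 6.70 and 7.15 in vitro and at 12.03, 9.22 and 11.01 in vivo, 14.4-fold lower (adjusted p = 8.76e-05).

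Of the 12 oocyte-specific and maternal-effect genes 0 passed with limma, beside 11.7% lower and 0.72% higher of all genes, 2 were lower and 1 was higher at an unadjusted p under 0.05, and the median was -0.16, or 0.05 with the arrays centred on their medians and 0.05 without in vivo array 1. With in vivo array 2 left out, 3 were lower and 0 higher, beside 20.1% lower and 2.54% higher of all genes, and with in vivo array 1 left out 0 passed. ZP3, a protein of the zona pellucida, stood at 11.96, 12.07 and 11.66 in vitro and at 14.40, 10.52 and 13.75 in vivo (adjusted p = 0.451, and 0.000952 without in vivo array 2). NLRP5, of the subcortical maternal complex, stood at 10.46, 9.93 and 9.49 in vitro and at 13.45, 9.22 and 12.14 in vivo (adjusted p = 0.196, and 0.000773 without in vivo array 2). In both, in vivo arrays 1 and 3 lay above and in vivo array 2 below every in vitro array. Other members went the other way. KIT stood at 11.98, 12.16 and 12.06 in vitro and at 11.02, 10.99 and 10.65 in vivo, without overlap, but did not pass. TRIM28 stood at 11.32, 11.26 and 11.47 in vitro and at 10.66, 11.50 and 10.87 in vivo. Of the 12 genes, 8 had a lower mean in vitro.

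Paracrine factors of the oocyte did not pass. GDF9, which acts on granulosa cells, stood at 12.39, 12.43 and 11.76 in vitro and at 13.10, 11.43 and 12.52 in vivo (log2 difference -0.16, SE 0.45, adjusted p = 0.986). BMP15, its partner, stood at 12.20, 12.05 and 11.99 in vitro and at 11.50, 11.69 and 12.07 in vivo (log2 difference 0.32, SE 0.76, adjusted p = 0.962). The groups of both genes overlapped, and standard errors of this size leave room for differences that were not detected. These standard errors come from the spread pooled over all 8 groups, embryos included, and not from the oocyte arrays alone. For KPNA7, the SD was 0.04 in each oocyte group, but the SE was 0.68. The same pooled spread enters the count of oocyte-specific and maternal-effect genes that passed.

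Of 33 genes of meiotic arrest, resumption and the spindle 1 was lower (3.03%, beside 11.7% of all genes) and 0 higher. The count became 0 lower without in vivo array 1 and 4 lower without in vivo array 2. CCNB1, cyclin B1, stood between 14.86 and 14.94 in vitro and between 14.71 and 15.08 in vivo (adjusted p = 0.995). MOS, the kinase that holds the egg at metaphase, stood at 13.75, 13.68 and 13.58 in vitro and at 13.56, 13.49 and 13.39 in vivo (adjusted p = 0.995). Both were among the abundant messages of either group. PLK1, a kinase of spindle assembly, stood at 8.94, 9.07 and 9.06 in vitro and at 11.87, 9.18 and 10.76 in vivo (log2 difference -1.58, SE 0.48, adjusted p = 0.0473). On in vivo array 2 PLK1 was just above the in vitro arrays, and its call was lost in 5 of 6 fits that left out 1 array (adjusted p of at most 0.387, without in vivo array 1, and 0.00037 without in vivo array 2).

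Maternal mRNA storage and decay had 1 of 28 genes lower (3.57%) and 2 higher, beside 11.7% lower and 0.72% higher of all genes. The counts were 1 lower and 1 higher without in vivo array 1, and 4 lower and 3 higher without in vivo array 2. CPSF3, the nuclease that cuts messages before polyadenylation, stood at 7.42, 7.60 and 7.37 in vitro and at 9.90, 8.80 and 9.32 in vivo, 3.68-fold lower (log2 difference -1.88, SE 0.29, adjusted p = 0.000409). BTG1 and TOB2, related proteins that bind the deadenylase complex, were the higher members. BTG1 stood at 12.46, 12.09 and 12.35 in vitro and at 11.20, 11.79 and 11.70 in vivo (log2 difference 0.73, adjusted p = 0.0424). TOB2 stood at 8.31, 8.75 and 8.09 in vitro and at 7.46, 6.40 and 6.53 in vivo (log2 difference 1.58, adjusted p = 0.0345). Neither overlapped between groups, and each call was lost in 5 of 6 fits that left out 1 array, with an adjusted p of at most 0.284 for BTG1 without in vivo array 1 and 0.143 for TOB2 without in vitro array 2.

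Genes that were higher in vitro were fewer and included signalling genes. BMP4, a secreted ligand of the TGF-beta family, stood at 7.36, 7.20 and 7.74 in vitro and at 4.66, 4.47 and 5.03 in vivo, with means of 7.43 ± 0.28 (SD, n = 3) and 4.72 ± 0.28 (SD, n = 3). It was 6.54-fold higher in vitro (log2 difference 2.71, SE 0.47, adjusted p = 0.000961, and at most 0.00683 on leaving out 1 array). By the probe set of highest mean, BMP4 was the only higher gene among 36 of the BMP, TGF-beta and growth factor list. SMAD3 was the only lower one on that reading. The list had 0 lower and 1 higher without in vivo array 1, and 1 lower and 1 higher without in vivo array 2. With each gene read as the mean of its tested probe sets, 0 of the 36 were lower and 4 were higher, so these counts depend on the probe set chosen. SMAD3, which carries the activin signal to the nucleus, stood at 7.16, 7.05 and 6.98 in vitro and at 11.14, 7.16 and 9.89 in vivo (adjusted p = 0.0219). On in vivo array 2 SMAD3 was at the in vitro level, and its call was lost in 5 of 6 fits that left out 1 array (adjusted p of at most 0.202, without in vivo array 1).

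AQP3, a channel for water and glycerol, stood at 9.34, 8.93 and 8.79 in vitro and at 7.26, 5.52 and 5.58 in vivo, 7.47-fold higher in vitro (log2 difference 2.90, SE 0.69, adjusted p = 0.0109). Leaving out in vivo array 3 or in vitro array 1 ended the call (adjusted p of at most 0.0564, without in vivo array 3). EIF2AK3, the kinase PERK of the unfolded protein response, stood at 6.04, 6.13 and 5.61 in vitro and at 3.28, 4.71 and 3.30 in vivo, at least 3.23-fold higher (log2 difference 2.16, SE 0.39, adjusted p = 0.00152). Both genes were higher on all in vitro arrays than on any in vivo array.

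SERPINA14, a serpin known from the uterus, had the largest rise. It stood at 6.38, 8.79 and 10.17 in vitro and at 5.72, 2.42 and 4.57 in vivo, at least 12.8-fold higher (log2 difference 4.21, SE 0.74, adjusted p = 0.00112). Its second probe set also passed (adjusted p = 0.00415), but there in vitro array 1 (6.24) lay below in vivo array 1 (6.36). OVGP1, the oviduct glycoprotein, was below 4 on all 6 arrays. Of the 11 oviduct and uterine markers tested SERPINA14 alone passed, and the list had 0 lower and 1 higher without in vivo array 1, and 2 lower and 1 higher without in vivo array 2. Its in vitro SD of 1.92 was the highest among the 15 largest rises.

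FGF2, a fibroblast growth factor, stood at 4.60, 4.14 and 6.27 in vitro and at 2.87, 2.98 and 2.91 in vivo, at least 2.00-fold higher (adjusted p = 0.00163). This probe set had means of 2.79 to 3.11 in the embryo groups. It thus entered the test only through the in vitro arrays, where it was high, and its adjusted p is no independent support. A second probe set of FGF2 did not pass, with 4.92, 3.07 and 3.63 in vitro and 4.57, 3.97 and 3.11 in vivo (log2 difference -0.01, adjusted p = 0.995), so the rise was seen in 1 of its 2 probe sets. CXCL12 and its receptor CXCR4 were both higher, with CXCL12 at 6.06, 6.21 and 6.95 in vitro and 4.31, 4.70 and 4.49 in vivo (adjusted p = 0.0411), and CXCR4 at 9.78, 9.53 and 10.25 in vitro and 8.00, 9.41 and 8.18 in vivo (adjusted p = 0.0164). The call of CXCL12 was lost in 5 of 6 fits that left out 1 array and that of CXCR4 in 3 of 6, with adjusted p of at most 0.182 and 0.13, both without in vivo array 1. ISG15, an interferon-stimulated gene, stood at 7.68 on in vitro array 3 and at no more than 2.77 elsewhere, so it marked 1 array and not the group.

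PPARGC1A, a coactivator of mitochondrial biogenesis, stood at 6.04, 3.94 and 5.24 in vitro and at 2.79, 2.55 and 2.55 in vivo, at least 2.10-fold higher (log2 difference 2.44, SE 0.41, adjusted p = 0.000879). The other 3 of its 4 tested probe sets did not pass (adjusted p between 0.0927 and 0.927), with log2 differences between 0.35 and 1.25. The rise was therefore seen in 1 of the 4 probe sets of PPARGC1A. MYB, a transcription factor, stood at 6.93, 7.83 and 6.60 in vitro and at 6.23, 2.80 and 3.12 in vivo (adjusted p = 0.0319), and 5 of 6 fits that left out 1 array ended the call (adjusted p of at most 0.147, without in vivo array 3).

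Calcium signalling and egg activation had 3 of 28 genes lower (10.7%) and 1 higher, apoptosis 2 of 31 lower (6.45%) and 1 higher, and the interferon and cytokine list 1 of 23 lower (4.35%) and 2 higher, beside 11.7% lower and 0.72% higher of all genes. Calcium signalling had 1 lower and 1 higher without in vivo array 1, and 4 lower and 3 higher without in vivo array 2. Apoptosis had 1 lower and 0 higher without in vivo array 1, and 5 lower and 3 higher without in vivo array 2. The interferon list had 0 lower and 0 higher without in vivo array 1, and 1 lower and 3 higher without in vivo array 2. CALM3, a calmodulin gene, stood at 6.07, 5.37 and 6.48 in vitro and at 10.36, 7.81 and 9.23 in vivo, 8.96-fold lower (adjusted p = 0.00042). BAD, a promoter of apoptosis, stood at 4.50, 4.70 and 4.78 in vitro and at 7.78, 6.70 and 6.74 in vivo, 5.32-fold lower (adjusted p = 0.000304). The groups of CALM3 and BAD did not overlap. Of 35 genes of junctions, adhesion and matrix 0 passed with limma, and 2 were higher at an unadjusted p under 0.05. There were 0 calls in this list without in vivo array 1 and 2 higher without in vivo array 2. Among its genes ITGB1, an integrin subunit, stood between 14.23 and 14.47 on all 6 arrays.

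The markers of other cell types differed by array more than by group. Of the 23 cumulus and granulosa markers tested 0 passed with limma in either direction and 1 was higher in vitro at an unadjusted p under 0.05. With in vivo array 2 left out 2 were higher, and with in vivo array 1 left out 0 passed. Of the 13 blood and leukocyte markers (0 lower without in vivo array 1 and 2 without in vivo array 2) 1 was lower, LCP1, an actin-bundling protein of leukocytes, at 3.88, 3.75 and 3.88 in vitro and 7.72, 3.95 and 7.63 in vivo (adjusted p = 0.0374, and 0.278 without in vivo array 1). Of 5 sperm and testis transcripts tested, 2 were lower in vitro, beside 11.7% of all genes. These were ODF2 and AKAP4, with adjusted p of 0.0273 and 0.0444. There were 0 lower without in vivo array 1 and 2 without in vivo array 2. AKAP4 stood at 2.2, 2.18 and 2.18 in vitro and at 4.57, 2.15 and 4.77 in vivo, so its groups overlapped. Its means in the embryo groups were 2.12 to 2.67. AKAP4 thus entered the test through in vivo arrays 1 and 3, where it was high, and its adjusted p is no independent support. ODF2 stood at 3.8, 2.56 and 3.08 in vitro and at 5.66, 4.08 and 6.03 in vivo. Of the 9 theca and stroma markers 0 passed with limma, and 1 was higher at an unadjusted p under 0.05, while 0 passed without in vivo array 1 or 2. GSTA2, a glutathione transferase, led the genes particular in level to in vivo array 2, with 12.46 there and at most 2.15 elsewhere, and 246 probe sets above 4 stood there more than 2 above both other in vivo arrays. The same count was 112 on in vivo array 1, 17 on in vivo array 3, and 24, 3 and 39 on in vitro arrays 1 to 3.

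Set beside the embryos, the lower set belonged to messages that were high later. The 1048 lower probe sets had a median of group means of 6.10 in in vitro oocytes and 8.51 in in vivo oocytes, then 7.83 in zygotes, 8.60 and 8.46 in 2-cell and 4-cell embryos, 9.59 at the 8-cell stage, 10.11 in morulae and 9.91 in blastocysts. The 197 higher probe sets had medians of 7.13 and 5.41 in the oocyte groups, 6.07 in zygotes and 3.79 at the 8-cell stage. UQCR10 followed the lower set, with means of 5.99 in zygotes, 12.07 at the 8-cell stage and 13.53 in morulae, whereas VDAC3 kept to 11.88 in zygotes and 11.37 at the 8-cell stage. The members were selected on the oocyte groups, so their levels there are a description, and no test was made over the stages.

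**Figure D5:**
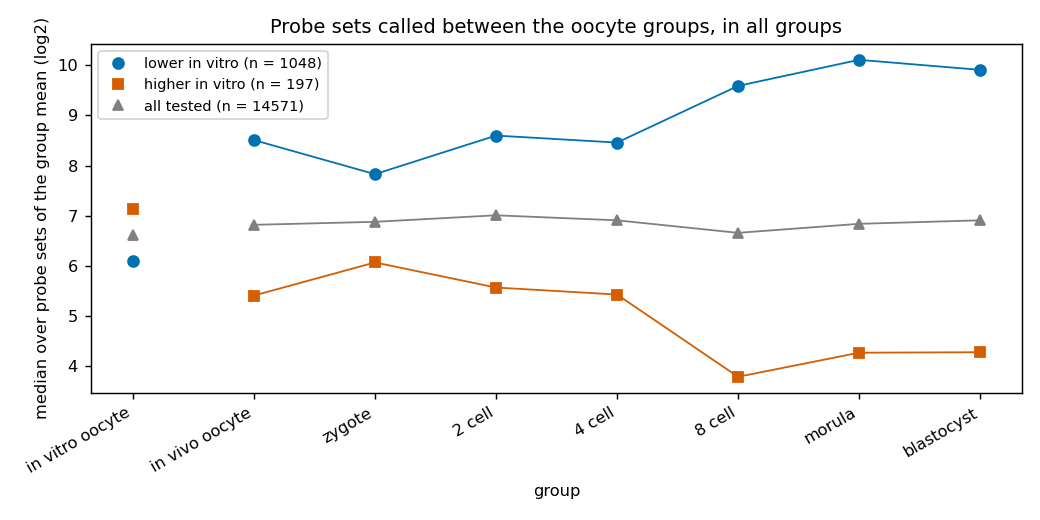
Median over probe sets of the group mean (log2) in the 8 groups, for the probe sets called lower or higher in in vitro oocytes and for all tested probe sets, with a line joining the groups collected in vivo. The lower set rises to 10.11 in morulae and the higher set falls to 3.79 at the 8-cell stage, while all tested probe sets stay between 6.61 and 7.01.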

How the data were processed

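Poly(A)+ RNA was isolated with oligo-dT beads and in vitro transcribed into biotin-labelled cRNA, per the labels' protocols. The authors deposited log2 expression values, made with GCRMA 2.0.0 per the submitters' processing notes. These were used without further normalization. Controls make up 112 of the 24128 probe sets. Symbols come from the platform annotation: 13292 probe sets carry 1 symbol, 86 several and 10638 none, and 9155 genes are named. A RefSeq table matched 13263 of them by gene ID and changed 0 symbols.

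limma 3.58.1 (R 4.3.3; lmFit, contrasts.fit, eBayes with trend) fitted 8 group means on 23 arrays. Tests were two-sided and adjusted by Benjamini-Hochberg over 14571 probe sets. The fit was tested on simulated data with 50 changed probe sets of each size. It recovered 4 at a log2 difference of 1, 21 at 2, 43 at 3 and 48 at 4, with 8 false calls. Most 2-fold differences were thus missed there, so a gene that did not pass may still differ. The simulation gave each probe set the same spread in all groups, whereas the median SD was 0.16 in vitro and 0.42 in vivo. The probe set of highest mean over all arrays stands for a gene. For lower bounds of folds, values under 4 were set to 4.

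The members, the 39 gene lists (34 processes, 5 marker lists) and the alternatives were chosen with earlier results of these data known. The genes named are the 15 largest rises and falls that passed without overlap, list members (by array, up to 3 per list with the smallest adjusted p), the 8 genes highest on in vivo array 2 over its group and 4 for each other array, and the 5 highest oocyte-specific genes. Not all are discussed. Other list members given by array (GDF9, BMP15, ZP3, NLRP5, KIT, TRIM28, CCNB1, MOS, GAPDH, ALDOA, SLC16A1, SOD1, PLIN2 and IDH1) were chosen after their values were seen. Deviations of same-numbered arrays from their group means correlated at -0.111 to -0.151, so replicate numbers were not treated as pairs. No genome of the array's build was used, and no sequences or positions are given.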

Additional observations from a re-analysis of the deposited data

How the results depend on the processing

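With all arrays 1245 probe sets passed (197 higher, 1048 lower). Filters, the trend and robust fitting moved these counts by less than 1.5 times. With the spread of the 6 oocyte arrays alone 1 passed (1 higher, 0 lower). With array weights, estimated gene by gene because the default did not converge, 5332 passed (2526 higher, 2806 lower). Centring on the hybridisation controls left 632 (42 higher, 590 lower). Centring on array medians moved the median over all genes from 0.02 to 0.24 and gave 342 higher and 764 lower, which raised the share of higher calls from 15.8% to 30.9%. Without in vitro array 3 and in vivo array 2, 2062 passed (337 higher, 1725 lower). Without in vivo arrays 1 and 2, a choice made after the data were seen, 96 were higher and 1051 lower. Leaving out 1 array gave 508 to 2442 in all, 55 to 494 higher and 453 to 1948 lower. With the replicate number as a block, 1188 passed in the 23-array fit (189 higher, 999 lower), and in the 6-array fit 0 passed (0 higher, 0 lower, 2379 at an unadjusted p under 0.05 in limma). The numbers do not pair the arrays, so the block is no check of pairing. Of 119 named probe sets that passed, the 23-array block ended 2 calls (PLK1 and BTG1), control centring 21, leaving out in vivo array 1 ended 18 and leaving out in vivo array 2 ended 3. With the 6-array spread 0 of the 119 passed. No probe set that passed both with all arrays and in another of these fits changed direction, which the shared arrays made hardly possible. Gene list counts without in vivo array 1 or 2 stand beside each list, and those with control centring fell to 21 of 68 for mitochondrial ribosomal proteins, 9 of 35 for initiation factors and 18 of 39 for complex I. Signal near background limits the folds of dim genes: of probe sets with a mean of at most 4 on the oocyte arrays, 1.35% were lower, against 12.2% between 6 and 8.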
